A study of Mus musculus with 12 samples.

Results

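Enzymes and efflux pumps that handle drugs and other foreign compounds were described across 12 RNA-seq libraries of cells sorted from mouse small-intestinal crypts. The genes were the protein-coding members of the cytochrome P450 families Cyp2, Cyp3 and Cyp4, the carboxylesterases Ces1 and Ces2, the UDP-glucuronosyltransferases Ugt1a and Ugt2, the glutathione S-transferases Gsta, Gstm, Gstp and Gstt, the sulfotransferases Sult1, and the transporters Abcb1a, Abcc2 and Abcg2. The count table of 55414 genes held 142 of them. The 73 described here were selected on their measured level, at least 75 counts summed over the 12 libraries, so that the summed count is not a finding. Cyp4f39 with 79 and Cyp2w1 with 80 counts lay just inside this limit, and Cyp3a59 with 66 and Ces2h with 65 counts just outside it. Of the 69 genes left out, 30 had 0 counts and 39 had 1 to 74 counts. The limit was reached by 71 genes in the 6 non-Paneth libraries alone and by 56 genes in the 6 Paneth libraries alone.

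The libraries formed 4 groups of 3, named here by genotype and cell fraction. WT Paneth and WT non-Paneth cells came from mice with an intact glucocorticoid receptor gene, Nr3c1, and GRKO Paneth and GRKO non-Paneth cells from mice in which Nr3c1 was deleted with a villin-driven Cre, which acts in the whole intestinal epithelium rather than in Paneth cells only. All mice were C57BL/6J, and the labels name no treatment. Paneth cells were sorted by flow cytometry as CD24+ cKIT+ cells with medium to high side scatter after CD31+, CD45+ and TER119+ cells were gated out. How the non-Paneth cells were gated was not found in the sources. In 6 of the 12 records the genotype field goes against the title, and the title was followed. The labels name no sequencing batch, and one that went along with genotype or fraction cannot be told apart from it. The labels name no animal for a library and only number the replicates, so that p-values measure the spread between these samples.

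Foreign compounds are cleared from the gut epithelium in steps. P450 enzymes oxidise them with electrons passed on by the reductase Por, and carboxylesterases split esters and amides. Transferases then join glucuronic acid, glutathione or sulfate to the product, and ATP-driven pumps export it. Much of this set is under the control of the nuclear receptors PXR (Nr1i2) and CAR (Nr1i3) and of the epithelial factors HNF4 and HNF1, and it is known to be strongest in the absorptive enterocytes of the villus.

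Total counts per library lay between 11126297 and 15910292. Levels are in CPM, a gene's count scaled to a common library size, with library sizes adjusted by the trimmed mean of M-values (TMM), which mattered because defensin and lysozyme genes took a large part of the counts in Paneth cell libraries. Nr3c1 itself stood at 40.9, 50.4 and 54.1 CPM in WT Paneth and 7.98, 5.82 and 15.4 CPM in GRKO Paneth cells, and at 110.5, 126 and 131 CPM in WT non-Paneth and 20.05, 13.1 and 24.5 CPM in GRKO non-Paneth cells. It was thus low in every library titled GRKO. A list of 12 Paneth markers summed to 492210 to 744690 CPM in WT Paneth and 489820 to 734910 CPM in GRKO Paneth cells, against at most 1741 CPM in any non-Paneth library. Xist was at 193 and 215 CPM in replicate 2 of the WT Paneth and of the WT non-Paneth cells and under 1 CPM in the other 10. Xist is transcribed in female cells, so that this pair of WT libraries differed from the rest in sex. The hepatocyte gene Alb stayed under 1 CPM and Cyp7a1 at 0 counts in all 12 libraries.

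The genes lie in few places. In the GRCm39 build, 6 Ces1 genes fill 283.4 kb and 5 Ces2 genes another 235.5 kb of chromosome 8, 7 Gstm genes lie within 149.1 kb of chromosome 3, and 7 Ugt2 and Sult1 genes within 679.3 kb of chromosome 5. On chromosome 17, 7 Cyp4f genes span 494.7 kb, and on chromosome 19 Abcc2 and Cyp2c23 lie within 247.0 kb. What the promoters hold was searched in the 300 bases from 250 before to 50 after the annotated start of each gene, on both strands. The letters of the HNF1 site, GTTAAT followed by any 2 bases and TT, occurred in 7 of 73 promoters (9.59%) and in 0.984% of 21757 promoters of protein-coding genes. The HNF4 letters CAAAGTCCA occurred in 2 (2.74%) against 0.45%, and the glucocorticoid response element letters ACANNNTGT (N for any base) in 8 (11%) against 5.94%. The letters TNGCGTG of the Ahr site stood in 5 (6.85%) against 6.07%, and TGACNNNGC of the antioxidant element in 7 (9.59%) against 12.5%. Over the 12103 promoters of genes with enough counts to be tested, the shares were 0.744% for HNF1, 0.496% for HNF4 and 4.18% for the glucocorticoid response element. They were 8.23% for the Ahr site, above that of the 73 genes, and 13.8% for the antioxidant element. These matches describe letters only, and many of the 73 genes are tandem copies that share sequence.

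The 7 promoters with HNF1 letters are shown because the share with this motif differed most from that of all promoters. Each stretch runs 5′ to 3′ on the strand of its gene from 20 bases before the match to 20 bases after it or, in Sult1d1, to the last base before the start site. Capitals mark the match, which in Ugt1a1 and Ugt1a9 reads on the opposite strand. The stretches are chr17:32904200-32904249 (+), chr17:32877689-32877738 (+), chr17:54153478-54153527 (-), chr5:87716934-87716964 (-), chr1:88139616-88139665 (+), chr1:87998386-87998435 (+) and chr5:87485079-87485128 (-).
Cyp4f15: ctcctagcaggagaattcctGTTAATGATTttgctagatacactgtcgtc
Cyp4f40: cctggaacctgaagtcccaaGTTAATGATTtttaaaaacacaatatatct
Sult1c2: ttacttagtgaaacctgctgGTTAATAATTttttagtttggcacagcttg
Sult1d1: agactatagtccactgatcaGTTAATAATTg
Ugt1a1: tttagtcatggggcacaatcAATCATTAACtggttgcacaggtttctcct
Ugt1a9: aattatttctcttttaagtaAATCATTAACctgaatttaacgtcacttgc
Ugt2a3: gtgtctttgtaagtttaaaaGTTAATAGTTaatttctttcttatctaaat
In Ugt1a1 and Ugt1a9 the match starts at positions -43 and -44 from the start site and has the same letters. Cyp4f15 and Cyp4f40, neighbours on chromosome 17, also share theirs, at positions -201 and -165. Of these 7 genes, Ugt1a1, Ugt1a9, Ugt2a3, Sult1d1 and Cyp4f40 were lower in WT Paneth than in WT non-Paneth cells, Sult1c2 was higher and Cyp4f15 did not pass the test. The letters stood before genes that differed in opposite directions, and their part in the differences was not tested.

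Contrasting genes are shown by the 150 bases just before their start site. Abcc2, at chr19:43770481-43770630 (+), was the gene whose genotype difference differed most between the fractions, and Cyp3a11, at chr5:145816868-145817017 (-), was among the genes that were lowest in Paneth cells. Ces1c, at chr8:93857943-93858092 (-), and Ces1f, at chr8:94006376-94006525 (-), belong to one gene cluster and differed in opposite directions. None of the 5 motifs occurred in these 4 stretches, which says only that the letters are not there.
Abcc2: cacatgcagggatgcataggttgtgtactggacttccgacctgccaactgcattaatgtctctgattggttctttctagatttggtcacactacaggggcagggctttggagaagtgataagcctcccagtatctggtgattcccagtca
Cyp3a11: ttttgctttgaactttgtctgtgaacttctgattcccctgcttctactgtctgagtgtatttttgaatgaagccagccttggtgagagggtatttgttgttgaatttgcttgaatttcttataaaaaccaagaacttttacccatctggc
Ces1c: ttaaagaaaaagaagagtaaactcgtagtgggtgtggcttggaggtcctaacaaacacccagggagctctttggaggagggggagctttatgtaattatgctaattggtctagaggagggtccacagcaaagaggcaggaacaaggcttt
Ces1f: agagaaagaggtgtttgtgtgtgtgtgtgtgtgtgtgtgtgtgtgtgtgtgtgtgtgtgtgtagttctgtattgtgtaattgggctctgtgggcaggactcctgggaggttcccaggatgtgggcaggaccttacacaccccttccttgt
The matches of Abcc2 to the antioxidant letters and of Cyp3a11 to the glucocorticoid response element letters lay at positions 18 and 21, after the start site.

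The counts of some genes rest on part of their sequence, since reads that fit several genes were not counted. The 9 Ugt1a genes of chromosome 1 each have a first exon of their own and share the exons that follow. Only 28.3% of the exonic bases of Ugt1a1, 22.8% of Ugt1a7c, 43.4% of Ugt1a6a and 29.1% of Ugt1a9 belong to no other gene of the strand, and for Ugt1a1 the share is 11.6% when both strands are considered. The last 60 bases of the 4 first exons and the start of the shared second exon show where the copies part. Capitals mark the 29 positions at which all 4 genes have the same base. The first exons end at bases 87999400, 88023700, 88067053 and 88140593 of chromosome 1, and the shared exon starts at base 88142766, all on the plus strand.
Ugt1a9: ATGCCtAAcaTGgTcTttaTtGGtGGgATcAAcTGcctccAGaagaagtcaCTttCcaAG
Ugt1a7c: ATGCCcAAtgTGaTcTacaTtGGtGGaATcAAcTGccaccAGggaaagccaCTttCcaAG
Ugt1a6a: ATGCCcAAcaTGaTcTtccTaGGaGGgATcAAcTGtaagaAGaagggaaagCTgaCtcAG
Ugt1a1: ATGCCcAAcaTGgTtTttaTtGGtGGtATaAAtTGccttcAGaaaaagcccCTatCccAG
Shared exon: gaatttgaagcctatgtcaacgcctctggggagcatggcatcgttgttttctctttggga
Ugt1a9 and Ugt1a1 had the same base at 49 of the 60 positions, and Ugt1a6a matched Ugt1a7c and Ugt1a1 at 36 each. Among the other genes, windows of 100 exonic bases that occur once in the genome made up 18.0% of Gsta1, 19.1% of Gsta13, 20.2% of Gstp2, 28.4% of Ces2c, 61.7% of Gstp1, 66.5% of Ugt2b5 and 81.1% of Cyp2c68, so that their levels are uncertain.

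**Figure D1:**
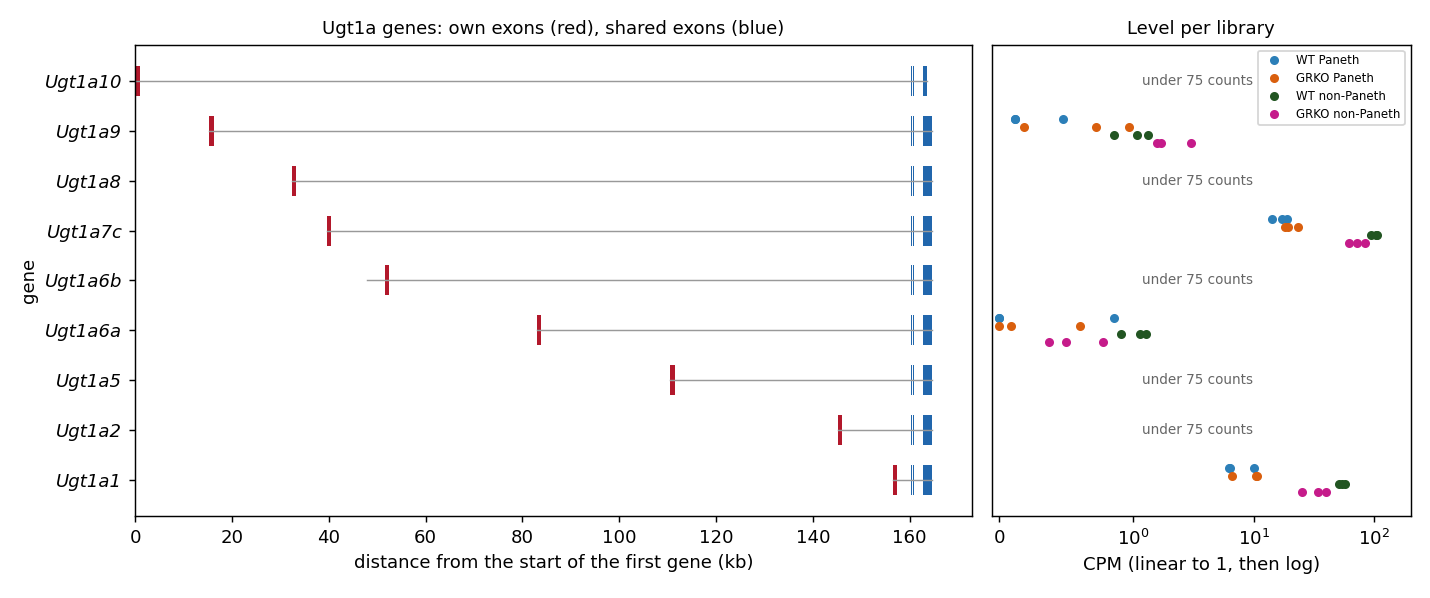
Left, exons of the 9 Ugt1a genes drawn to scale in kb from the start of the first gene, own exons in red and shared exons in blue. Right, CPM of the 4 described genes in each library, on an axis that is linear to 1 and logarithmic above: Ugt1a7c and Ugt1a1 lie above 20 CPM in all non-Paneth libraries, and Ugt1a9 and Ugt1a6a under 4 CPM in all 12.

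The 73 genes together took 0.086 to 0.0965% of all counts in WT Paneth, 0.0743 to 0.0911% in GRKO Paneth, 0.7226 to 0.8414% in WT non-Paneth and 0.3228 to 0.4464% in GRKO non-Paneth cells. Their summed level was 1079, 1473 and 1133 CPM in the WT Paneth and 1124, 1113 and 1160.1 CPM in the GRKO Paneth libraries, and 6727, 6043 and 6915 CPM in WT non-Paneth and 2505, 2154 and 3022 CPM in GRKO non-Paneth cells. The 3 WT non-Paneth libraries stood above all others, the GRKO non-Paneth libraries came next without overlap, and the Paneth libraries of both genotypes overlapped. In WT non-Paneth cells 5 genes, Ces2e, Cyp4f14, Ugt2b34, Cyp4v3 and Cyp3a13, made up 44.8% of the sum. Per kb of exonic length the order there was led by Ces2e with 309.6 CPM per kb, followed by Cyp4f14 with 134, Ugt2b34 with 123 and Cyp3a13 with 111 CPM per kb. In WT Paneth cells it was led by Gstp1 with 41.4, Ugt2b34 with 37.3 and Gstm5 with 34.9 CPM per kb, and the same 3 led in GRKO Paneth cells. If the length is limited to bases that no other gene covers, Ugt1a7c moves up to place 5 in WT non-Paneth cells.

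**Figure D2:**
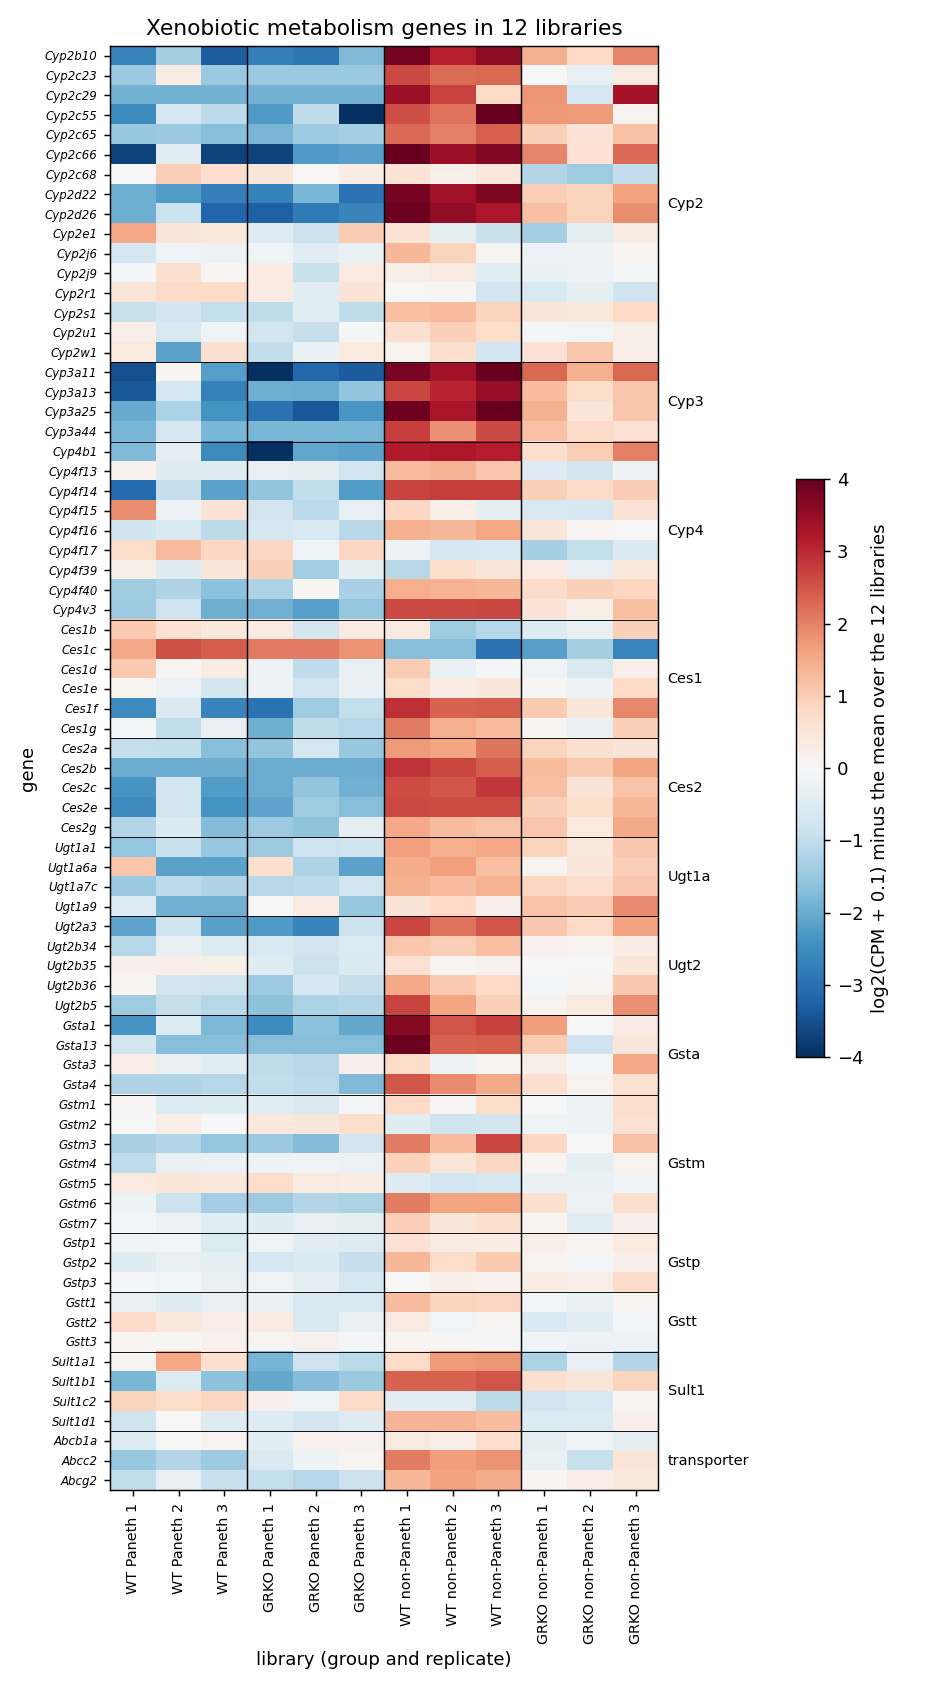
Level of the 73 genes (rows, by family) in the 12 libraries (columns), as log2(CPM + 0.1) minus the mean of the gene over the 12 libraries, red for higher and blue for lower. Most rows are reddest in the 3 WT non-Paneth libraries and bluest in the Paneth libraries, and Ces1c, Cyp4f17 and Gstm5 run the other way.

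Between the fractions, 56 of the 72 genes tested differed in WT mice, 51 lower and 5 higher in Paneth cells, with a median log2 fold change of -2.06 over the 72 genes. Calls rest on edgeR's quasi-likelihood test with a false discovery rate of 5% over all 13057 genes. Over all of these, 50.7% were called (24% higher and 26.7% lower in WT Paneth cells) with a median of 0.01. In GRKO mice 48 of 72 differed, 44 lower and 4 higher in Paneth cells, with a median of -1.39, against 39.2% of all genes (17.9% higher and 21.2% lower) and a median of -0.08. With the 5 genes at 0 counts in a group set to their floor of 3 counts, the GRKO median was -1.33. The 2 comparisons share no library, and 44 genes were called in both in the same direction, 41 lower and 3 higher, with 0 called in opposite directions. In WT mice 27 genes were lower in Paneth cells by at least 8-fold. Joint calls and calls past a fold limit were not counted over all genes, so that these counts are not shown to be particular to the set. The choice of genes favours a difference in a gene with few counts that reaches the limit of 75 through one fraction alone. Not every such gene passed, and Cyp2c29 did not in WT mice. Among the 56 genes that reach the limit in each fraction, 41 were lower and 5 higher in WT Paneth cells, and 34 were lower in GRKO Paneth cells.

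In non-Paneth cells 45 of 72 genes differed between the genotypes, 43 lower and 2 higher in GRKO cells, with a median log2 fold change of -0.98, against 37.3% of all genes (17.5% higher and 19.8% lower) and a median of 0.02. Of these, 33 were lower by at least 2-fold and 11 by at least 4-fold, with no such count over all genes to set beside them. In Paneth cells only Ugt2b35 differed, with a lower level in GRKO cells, where 3.22% of all genes were called and 1.52% were called lower. At an unadjusted p under 0.05 there were 9 genes of the set, where 3492 of all 13057 genes lay under it. DESeq2 called 3 genes of the set and 1464 of all 24077 genes it fitted. Without WT Paneth replicate 1 or 2 or GRKO Paneth replicate 2 or 3 the number of genes of the set called was 0. These 4 fits called 1, 86, 0 and 41 of all genes. Without GRKO Paneth replicate 1 it was 3 genes of the set and 1619 of all 13379 genes. The genotype difference itself differed between the fractions for 18 of 72 genes, against 18.7% of all genes. The interaction, the log2 fold change in Paneth minus that in non-Paneth cells, was positive for all 18 (11.5% of all genes were called with a positive and 7.27% with a negative interaction), with a median of 0.69 over the 72 genes and of -0.01 over all genes. With the replicate number as a block, which pairs same-numbered fractions within each genotype, the interaction was called for 21 genes, 19 positive and 2 negative. The negative ones were Ces1d (-0.59, adjusted p = 0.04) and Ugt2b35 (-0.71, adjusted p = 0.0202), and Ces2a lost its call (adjusted p = 0.0854). Scaling by library totals alone moved the median of all genes to -0.68 between the WT fractions, -1.05 between the GRKO fractions and 0.31 between the genotypes in non-Paneth cells, where 61, 64 and 40 genes of the set were then called. Of all genes, 8.4% were then higher and 60.5% lower in WT Paneth cells, 6.25% higher and 76.3% lower in GRKO Paneth cells, and 33.3% higher and 11.3% lower in GRKO non-Paneth cells. The split of the set was then 3 higher and 58 lower (4.17% and 80.6%), 2 higher and 62 lower (2.78% and 86.1%), and 4 higher and 36 lower (5.56% and 50%). The interaction was then positive for 13 and negative for 2 genes of the set, against 5.75% positive and 14.1% negative of all genes.

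Markers of enterocytes, stem and tuft cells also differed between the groups. The list of 20 enterocyte markers, all of them above 1 CPM in each group, summed to 38993, 39553 and 40880 CPM in WT non-Paneth, 10423, 8470.5 and 10575 CPM in GRKO non-Paneth, 1392, 3809 and 1679.9 CPM in WT Paneth and 1441, 2260.4 and 1954 CPM in GRKO Paneth cells. It was 4.05-fold lower in GRKO than in WT non-Paneth cells, where the 73 genes were 2.56-fold lower in sum, and 14 of its 20 genes were called lower. In these cells 10 of 12 stem and cycling markers were called higher in GRKO, with sums of 6511 to 7821 against 4663 to 5988 CPM, and 9 of 9 tuft cell markers tested, with sums of 86.1 to 364 against 4.65 to 12 CPM. Between the WT fractions 20 of 20 enterocyte markers were called lower in Paneth cells, while 9 of 9 tuft cell markers (median log2 fold change 5.77, sums of 237 to 602 CPM in Paneth cells) and 8 of 12 stem and cycling markers (sums of 9216 to 9596 CPM) were called higher. Of 10 goblet cell markers 5 were higher and 3 lower, and of 12 enteroendocrine markers 1 was higher and 6 lower. Between the GRKO fractions 19 of 20 enterocyte markers were called lower in Paneth cells, 9 of 9 tuft cell markers higher (median log2 fold change 2.28), 2 stem and cycling markers higher and 6 lower, 6 goblet cell markers higher and 2 lower, and 9 enteroendocrine markers lower. Among WT Paneth libraries replicate 2 had the highest enterocyte sum, and it was the highest of the 3 for 34 of the 51 genes that were lower in Paneth cells. The share over all genes was not counted. This library was also the only WT Paneth library with Xist above 1 CPM, and its TMM factor of 0.656 was the lowest of all libraries. Without this library 53 genes were called between the WT fractions, and without both libraries of WT replicate 2 there were 52. The part of these markers in the results was not tested, and in bulk samples fewer cells of a type and less RNA per cell cannot be told apart.

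**Figure D3:**
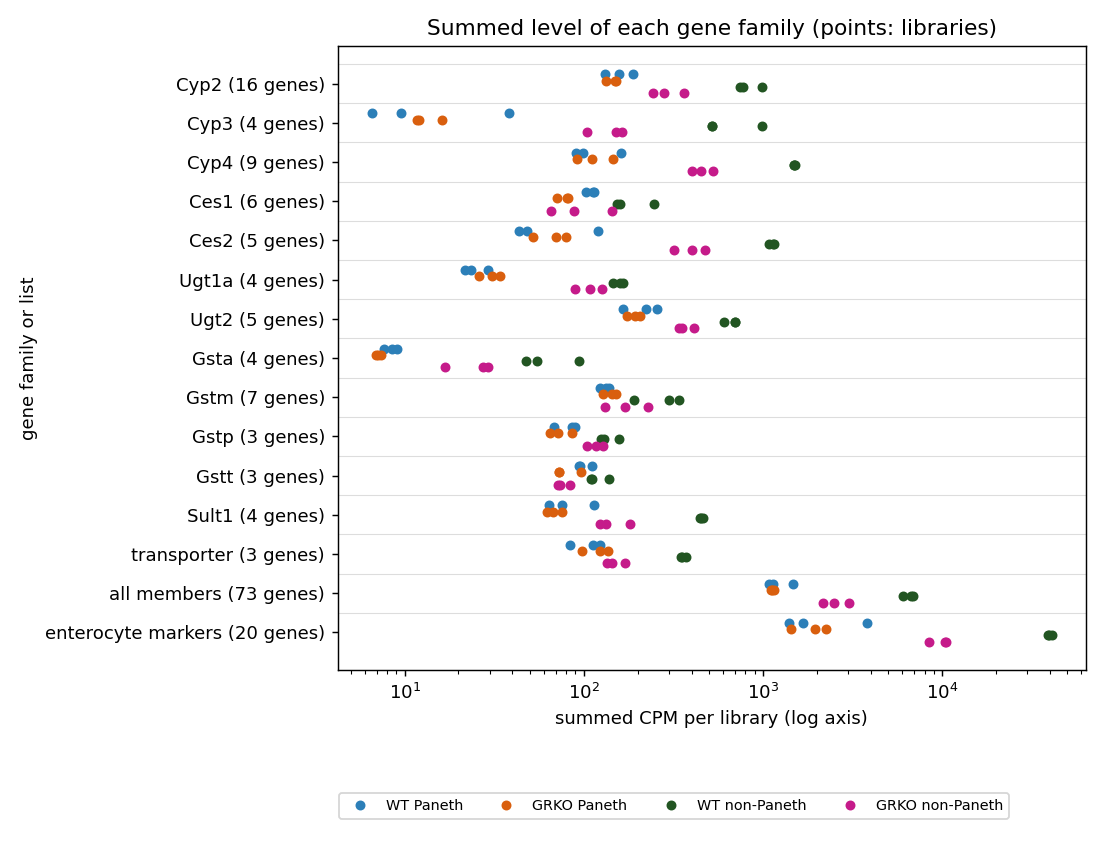
Summed CPM per library (log axis) of each gene family, of all 73 genes and of 20 enterocyte markers, with a point for each of the 3 libraries of a group. WT non-Paneth libraries (green) stand to the right of all others for Cyp3, Cyp4, Ces2, Ugt2, Sult1 and the transporters, while the groups lie close together for Gstp and Gstt.

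The P450 enzymes of the Cyp2 and Cyp3 families oxidise many drugs, and those of the Cyp4 family act on fatty acids. Of 28 genes tested in these families, 20 were lower and 1 higher in Paneth than in non-Paneth cells of WT mice, and 19 were lower in GRKO than in WT non-Paneth cells. Cyp3a11, the mouse enzyme most like human CYP3A4 and a classic target of PXR, stood at 120.3, 88.6 and 364 CPM in WT non-Paneth and 42.5, 22.9 and 42.6 CPM in GRKO non-Paneth cells. In Paneth cells it was at 0.665, 9.16 and 1.78 CPM in WT and 0, 0.882 and 0.757 CPM in GRKO mice. The non-Paneth groups did not overlap, with the third WT library far above the other two, and all Paneth libraries lay below them. The gene (ENSMUSG00000056035, chr5:145791236-145816867, minus strand) was lower in WT Paneth cells (log2 fold change -5.70, SE 0.919, adjusted p = 8.41e-04) and in GRKO non-Paneth cells (log2 fold change -2.41, SE 0.721, adjusted p = 0.0295). The second of these calls was lost in 8 of 16 alternatives, among them the fits without WT non-Paneth replicate 3 (log2 fold change -1.60, adjusted p = 0.0911 by edgeR) or without any one of the GRKO non-Paneth libraries (adjusted p = 0.0649 to 0.0967).

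Its neighbour Cyp3a25 showed the same order of groups. It stood at 129, 82.3 and 157 CPM in WT and 22.6, 11.9 and 18.2 CPM in GRKO non-Paneth cells, against 2, 3.47 and 1.54 CPM in WT and 0.967, 0.706 and 1.61 CPM in GRKO Paneth cells. The groups of either fraction did not overlap with those of the other, and the genotypes parted in non-Paneth cells (log2 fold change -2.81, SE 0.294, adjusted p = 4.43e-05). Cyp3a13, with the highest CPM per kb of the Cyp3a genes in WT non-Paneth cells, had 269, 349 and 468 CPM in WT and 98.4, 69.6 and 90.9 CPM in GRKO non-Paneth cells. In WT Paneth cells it had 3.9, 25.6 and 6.27 CPM, and in GRKO Paneth cells 10.8, 10.4 and 13.9 CPM. The second WT value comes from replicate 2, the WT Paneth library with the highest enterocyte marker sum and with Xist. The difference between the fractions was -4.95 on the log2 scale in WT and -2.88 in GRKO mice (adjusted p = 1.63e-04 and 0.00402). Its genotype difference in non-Paneth cells (log2 fold change -2.07, SE 0.532, adjusted p = 0.015) was -1.99 with adjusted p = 0.0519 without GRKO non-Paneth replicate 2. Cyp3a44 was rare, at 2.29, 1.16 and 2.09 CPM in WT non-Paneth cells and 0 counts in GRKO Paneth cells, where it was at least 5.48-fold lower than in GRKO non-Paneth cells (floor of 3 counts over the group, counting error only). As a family the 4 Cyp3 genes summed to 521 to 992 CPM in WT non-Paneth cells, 37.3-fold more than in WT Paneth cells and 4.83-fold more than in GRKO non-Paneth cells. Without WT Paneth replicate 2, left out in a step added after the data were seen, the fold over WT Paneth cells was 84.

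Among the Cyp2 genes, 10 of 15 tested were lower in WT Paneth cells and 10 were lower in GRKO non-Paneth cells. Cyp2b10, the best known target of CAR, had 194, 117 and 165 CPM in WT and 36.5, 23.5 and 52.6 CPM in GRKO non-Paneth cells, and 2.09, 5.32 and 1.3 CPM in WT and 1.93, 1.76 and 3.88 CPM in GRKO Paneth cells. The non-Paneth genotypes were apart by more than the spread (log2 fold change -2.08, SE 0.383, adjusted p = 0.00234), and the Paneth genotypes overlapped. Cyp2d26 had 261, 201 and 162 CPM in WT and 39.6, 31.6 and 61.7 CPM in GRKO non-Paneth cells (log2 fold change -2.23, SE 0.39, adjusted p = 0.00178). Its relative Cyp2d22 had 32, 23.1 and 29.7 CPM in WT and 4.34, 4.03 and 6.73 CPM in GRKO non-Paneth cells, and under 1 CPM in all 6 Paneth libraries. This was the largest fall of a called Cyp2 gene with counts in every group, with log2 fold change -6.23, SE 0.341, adjusted p = 3.50e-09 between the WT fractions. The genotype difference of Cyp2d22 in non-Paneth cells (log2 fold change -2.49, SE 0.224, adjusted p = 4.70e-06) compared with -0.16 in Paneth cells, and the interaction passed (log2 2.33, SE 0.681, adjusted p = 0.028). Without WT Paneth replicate 3 or GRKO Paneth replicate 2 it was 2.12 and 1.71 and did not pass (adjusted p = 0.0611 and 0.223). With under 1 CPM in Paneth cells, a change there was hardly detectable at this depth.

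The Cyp2c genes, which oxidise arachidonic acid as well as drugs, did not move as one. Cyp2c65 had 119, 98.6 and 129 CPM in WT non-Paneth, 47.4, 36 and 56 CPM in GRKO non-Paneth, 8.46, 8.79 and 7.46 CPM in WT Paneth and 6.77, 9 and 9.56 CPM in GRKO Paneth cells. Cyp2c66 had 23.1, 14 and 17.2 CPM in WT non-Paneth cells and at most 0.866 CPM in any Paneth library. Cyp2c68, which lies in the same cluster, did not pass between the WT fractions. It had 29.9, 60.7 and 48.5 CPM in WT Paneth and 44.2, 35.3 and 40.7 CPM in WT non-Paneth cells, which overlapped. In GRKO mice it had 43, 29.8 and 37.7 CPM in Paneth and 13.4, 11.2 and 15.4 CPM in non-Paneth cells, and was higher in Paneth cells (log2 fold change 1.46, SE 0.223, adjusted p = 1.36e-04). Cyp2c68 shares part of its windows with other genes. Cyp2c29 had 0 counts in all 6 Paneth libraries and 3.82, 2.33 and 0.535 CPM in WT non-Paneth cells, at least 20.1-fold more, but with this spread it did not pass (adjusted p = 0.0671). Cyp2j6, an epoxygenase common in the gut, had 47.9, 66.7 and 64.2 CPM in WT Paneth and 66.7, 55.7 and 63 CPM in GRKO Paneth cells, close to the 64.8, 66 and 81.7 CPM of GRKO non-Paneth cells. Only WT non-Paneth cells stood higher, at 191, 139.9 and 82.5 CPM (log2 fold change -0.96, SE 0.239, adjusted p = 0.00732 for GRKO against WT). Cyp2e1, Cyp2j9 and Cyp2r1 did not pass in any of the 5 comparisons, and Cyp2w1 had too few counts to be tested.

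The other Cyp2 genes were lower in Paneth cells. Cyp2s1, a P450 of epithelia outside the liver, had 80.9, 85.3 and 66.2 CPM in WT and 49.3, 47.2 and 62.1 CPM in GRKO non-Paneth cells, against 18.9, 20.8 and 18.2 CPM in WT Paneth cells. The genotypes did not overlap in non-Paneth cells (log2 fold change -0.55, SE 0.159, adjusted p = 0.0134). Cyp2u1, a fatty acid hydroxylase, differed by -0.92 between the WT fractions and -0.77 between the non-Paneth genotypes on the log2 scale (adjusted p = 0.00965 and 0.0262). Cyp2c55 had 19.99, 15.2 and 68.7 CPM in WT non-Paneth cells, with the third library apart from the others, and its genotype difference there did not pass (log2 fold change -2.02, adjusted p = 0.0535). Cyp2c23, near Abcc2 on chromosome 19, was at most 1.66 CPM in any library and had 0 counts in GRKO Paneth cells, at least 1.91-fold lower than in GRKO non-Paneth cells.

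Cyp4 enzymes hydroxylate the ends of fatty acids and leukotrienes. Cyp4f14 was among the most abundant genes of the set in non-Paneth cells, at 812, 839 and 849 CPM in WT and 240.3, 213 and 248 CPM in GRKO mice, against 14.2, 65.2 and 28.2 CPM in WT Paneth and 41.6, 62 and 26.3 CPM in GRKO Paneth cells. The WT non-Paneth values were nearly equal and far above the rest, and the Paneth values spread widely (log2 fold change -1.83, SE 0.473, adjusted p = 0.0143 for the genotype in non-Paneth cells). Cyp4v3 had 364, 359 and 370.4 CPM in WT and 83.7, 68.5 and 133 CPM in GRKO non-Paneth cells (log2 fold change -1.94, SE 0.282, adjusted p = 3.44e-04). Cyp4f13 had 50.5, 53.6 and 44.9 CPM in WT non-Paneth cells, while its 14.8, 12.5 and 18.4 CPM in GRKO non-Paneth cells overlapped the 23.8, 15.1 and 14.9 CPM of WT Paneth and the 16.6, 16.1 and 12.4 CPM of GRKO Paneth cells. The fractions thus differed in WT (log2 fold change -1.46, SE 0.193, adjusted p = 1.39e-05) but not past the threshold in GRKO mice (log2 fold change -0.02, adjusted p = 0.943), and the interaction passed (log2 1.44, adjusted p = 0.00295). Cyp4f17, from the same cluster, ran the other way. It had 3.61, 5.2 and 3.91 CPM in WT Paneth and 1.85, 1.28 and 1.34 CPM in WT non-Paneth cells (log2 fold change 1.51, SE 0.348, adjusted p = 0.00201), and the same direction in GRKO mice with a log2 fold change of 1.55 (adjusted p = 0.00262). Cyp4b1 had 87.7, 90.6 and 85.6 CPM in WT and 15.7, 18.9 and 38.8 CPM in GRKO non-Paneth cells (log2 fold change -1.84, SE 0.454, adjusted p = 0.0113), and Cyp4f16 had 97.2, 90.7 and 105 and 49.8, 38.1 and 36.6 CPM (log2 fold change -1.23, SE 0.153, adjusted p = 4.43e-05). Cyp4f40 differed between the fractions by -2.80 in WT and -1.53 in GRKO mice (adjusted p = 1.01e-05 and 0.0012), and Cyp4f39 passed in none of the 5 comparisons.

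**Figure D4:**
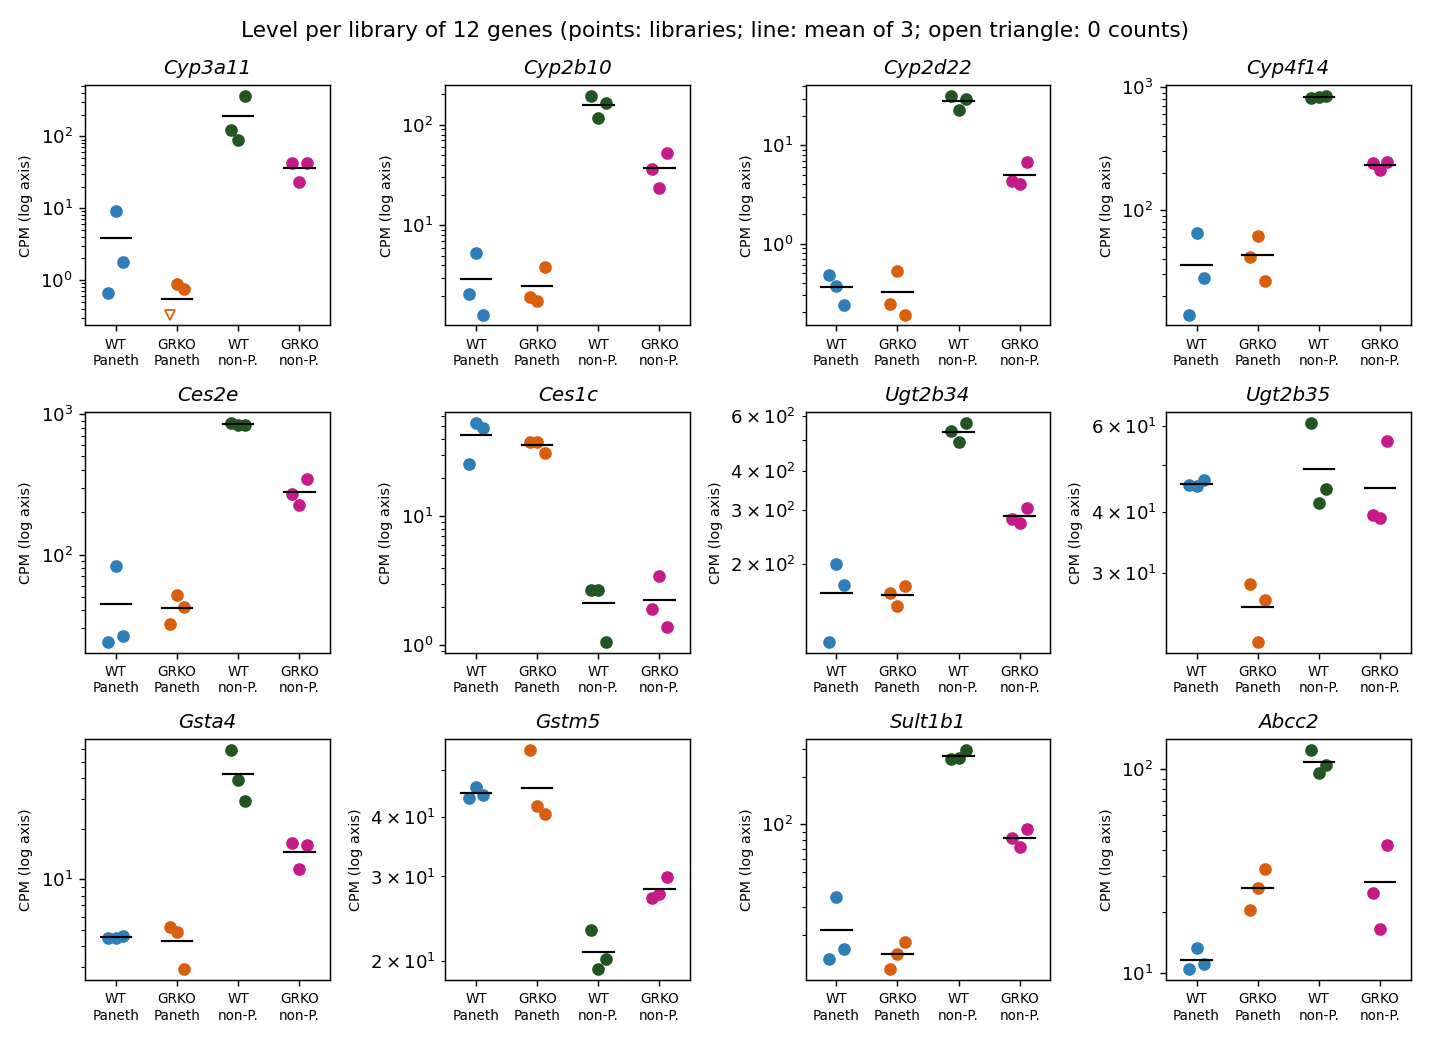
CPM per library (log axis, scaled for each gene) of 12 genes, with a point for each of 3 libraries per group, a line at the mean and an open triangle for 0 counts. All WT non-Paneth libraries lie above all other libraries for 9 of the genes, Ces1c and Gstm5 are highest in the Paneth groups, and the GRKO Paneth libraries of Ugt2b35 lie below the WT Paneth libraries.

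The Ces2 carboxylesterases, which hydrolyse prodrugs and acylglycerols in the gut, differed in the same direction between the fractions. All 5 were lower in Paneth than in non-Paneth cells of either genotype, and 4 were lower in GRKO than in WT non-Paneth cells. Ces2b reached the limit of 75 counts through the non-Paneth libraries alone, which favours its call between the fractions. Ces2e (ENSMUSG00000031886, chr8:105652848-105661304, plus strand) had 864, 843 and 841 CPM in WT and 269, 224 and 342 CPM in GRKO non-Paneth cells, and 23.9, 82.8 and 26.2 CPM in WT and 32, 51.4 and 42.2 CPM in GRKO Paneth cells. The WT non-Paneth libraries were close together and the WT Paneth library of replicate 2 stood apart from its group. The log2 fold change was -4.27 between the WT fractions (SE 0.477, adjusted p = 4.57e-05) and -1.61 between the genotypes in non-Paneth cells (SE 0.423, adjusted p = 0.0148). Ces2c had 134, 124 and 158 CPM in WT and 51.1, 31.7 and 48.7 CPM in GRKO non-Paneth cells, and Ces2a 82.1, 74.9 and 111 and 46.2, 38.8 and 35.8 CPM. Ces2g had 50.04, 40.6 and 38.4 CPM in WT and 37.4, 22.7 and 49.5 CPM in GRKO non-Paneth cells, which overlapped (log2 fold change -0.24, adjusted p = 0.631). Ces2b had 0 counts in all 6 Paneth libraries and was at least 21.7-fold lower there in WT and 8.82-fold lower in GRKO mice, taking 3 counts over the group as the floor.

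The Ces1 carboxylesterases, the family of the main plasma and liver esterases, were split. Ces1c (ENSMUSG00000057400, chr8:93825643-93857942, minus strand), known as the secreted esterase of mouse plasma, had 25.6, 52.9 and 48.5 CPM in WT Paneth and 37.8, 37.5 and 31.1 CPM in GRKO Paneth cells, against 2.67, 2.68 and 1.07 and 1.91, 3.48 and 1.38 CPM in the non-Paneth cells of these genotypes. Every Paneth library lay above every non-Paneth library, and the genotypes overlapped in both fractions. It was the gene of the set with the largest rise in Paneth cells (log2 fold change 4.31, SE 0.409, adjusted p = 4.24e-06), and the same held in GRKO mice (log2 fold change 3.96, SE 0.394, adjusted p = 1.30e-05). Ces1f had 138, 94.6 and 98.3 CPM in WT and 37.9, 25 and 70.3 CPM in GRKO non-Paneth cells, and 3.04, 12.3 and 2.84 CPM in WT and 2.3, 6.79 and 9.37 CPM in GRKO Paneth cells (log2 fold change -4.22, SE 0.674, adjusted p = 7.21e-04 between the WT fractions). Both genes lie on the same strand, with Ces1d and Ces1e between them. Ces1d, a lipid droplet hydrolase, had 61.7, 32.6 and 37.2 CPM in WT Paneth and 60.9, 24.6 and 28.2 CPM in WT non-Paneth cells and did not pass in any comparison, and Ces1e differed by -0.77 on the log2 scale between the WT fractions (adjusted p = 0.0267). At the ends of the cluster, Ces1g differed by -2.06 between the WT fractions (adjusted p = 2.49e-04), and Ces1b, at most 2.09 CPM, passed in none of the 5 comparisons.

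The glucuronosyltransferases join glucuronic acid to bilirubin, steroids, bile acids and drugs. Of 9 tested, 7 were lower in WT Paneth cells and 4 in GRKO non-Paneth cells. Ugt2b34, with the most counts of them, was at 537, 494 and 568 CPM in WT and 279.8, 272 and 304 CPM in GRKO non-Paneth cells. It kept 113, 200.2 and 172 CPM in WT Paneth and 162, 148 and 171 CPM in GRKO Paneth cells, which overlapped. Its genotype difference in non-Paneth cells was -0.90 on the log2 scale (SE 0.165, adjusted p = 7.34e-04). Ugt2b35 (ENSMUSG00000035811, chr5:87148701-87161742, plus strand) had 45.4, 45.2 and 46.4 CPM in WT Paneth cells, and 28.5, 21.7 and 26.4 CPM in GRKO Paneth cells. The groups did not overlap, and this was the only call of the set between the Paneth genotypes (log2 fold change -0.84, SE 0.174, adjusted p = 0.0425). It was lost in 8 of 16 alternatives, among them those without WT Paneth replicate 1 or 2 and without GRKO Paneth replicate 2 or 3 (log2 fold change -0.86 to -0.73, adjusted p = 0.0535 to 0.224). In non-Paneth cells the same gene had 60.8, 41.8 and 44.6 CPM in WT and 39.4, 38.8 and 55.8 CPM in GRKO mice, with overlap. The interaction of Ugt2b35 did not pass (log2 -0.71, adjusted p = 0.052), so that a difference between the fractions is not shown.

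Ugt1a1, the bilirubin transferase, had 57.6, 50.6 and 54.4 CPM in WT and 34.3, 25 and 39.5 CPM in GRKO non-Paneth cells, and 6.27, 10.03 and 6.39 CPM in WT and 6.65, 10.5 and 10.6 CPM in GRKO Paneth cells. Ugt1a7c, which has the most counts of the cluster, had 106, 93.3 and 103 CPM in WT and 71.6, 62.3 and 84 CPM in GRKO non-Paneth cells, and 14.2, 18.9 and 17 and 18.1, 19.2 and 23.3 CPM in the Paneth cells of these genotypes. In both genes the GRKO non-Paneth libraries lay below the WT ones, with log2 fold changes of -0.72 (adjusted p = 0.00933) and -0.47 (adjusted p = 0.0145). Ugt1a9 was rare and had its highest values in GRKO non-Paneth cells, at 1.73, 1.59 and 3.02 CPM against 1.08, 1.34 and 0.856 CPM in WT, without passing (adjusted p = 0.109). Its call between the WT fractions was lost without WT Paneth replicate 2 or 3 or WT non-Paneth replicate 2 (adjusted p = 0.0567 to 0.0608). Ugt2a3 had 79.6, 56.7 and 71.9 CPM in WT and 26.8, 21.5 and 38.6 CPM in GRKO non-Paneth cells and at most 7.06 CPM in a Paneth library (log2 fold change -4.07, SE 0.47, adjusted p = 4.29e-05 between the WT fractions). Ugt2b36 and Ugt2b5 were lower in Paneth cells, with log2 fold changes of -1.58 and -3.21 in WT mice (adjusted p = 0.00184 and 6.32e-04), and Ugt1a6a, at most 1.28 CPM, passed in none of the 5 comparisons.

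Glutathione S-transferases, which join glutathione to reactive compounds, held genes of either direction. Of 17 tested, 11 were lower and 2 higher in WT Paneth cells, and 9 were lower and 2 higher in GRKO non-Paneth cells. Of 4 genes of the alpha class, 3 were lower in WT Paneth cells. Gsta4, which clears the lipid peroxide product 4-hydroxynonenal, had 58.8, 38.8 and 29.4 CPM in WT and 16.4, 11.5 and 16 CPM in GRKO non-Paneth cells, and 4.47, 4.46 and 4.62 CPM in WT and 5.2, 4.85 and 2.94 CPM in GRKO Paneth cells. Its log2 fold change was -3.23 between the WT fractions and -1.53 between the genotypes in non-Paneth cells (adjusted p = 1.89e-07 and 2.09e-04). Gsta1 had 25, 11.1 and 13 CPM in WT and 6.2, 1.89 and 2.37 CPM in GRKO non-Paneth cells, with most of its windows shared, and at most 1.24 CPM in a Paneth library. Gsta3, on chromosome 1, did not differ past the threshold between the WT fractions (log2 fold change -0.38, adjusted p = 0.533), and in GRKO mice, where it passed (-1.29, adjusted p = 0.0459), the groups overlapped. That call was lost in 9 of 15 alternatives, with an adjusted p of up to 0.387, among them without GRKO Paneth replicate 1 or 2 and without GRKO non-Paneth replicate 1 or 3. Gsta13 was rare, with 4.84, 1.57 and 1.66 CPM in WT non-Paneth cells and 0 counts in GRKO Paneth cells, at least 3.31-fold lower than in GRKO non-Paneth cells.

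The mu class lies in one cluster. Gstm5 had 43.7, 46.2 and 44.4 CPM in WT Paneth and 55, 42.2 and 40.5 CPM in GRKO Paneth cells, against 23.2, 19.3 and 20.2 and 27, 27.6 and 29.97 CPM in the non-Paneth cells of these genotypes. Every Paneth library lay above every non-Paneth library (log2 fold change 1.10, SE 0.133, adjusted p = 5.95e-06 in WT and 0.70 in GRKO mice). In GRKO mice this direction turned under scaling by library totals. In non-Paneth cells Gstm5 was higher in GRKO mice (log2 fold change 0.43, SE 0.131, adjusted p = 0.0172), a call that was lost in 7 of 16 alternatives, among them the fits without WT non-Paneth replicate 2 or 3 or without any one of the GRKO non-Paneth libraries (log2 fold change 0.33 to 0.42, adjusted p = 0.0564 to 0.1246). Gstm2 had 17.4, 14.2 and 14.9 CPM in WT and 21.8, 20.7 and 37.8 CPM in GRKO non-Paneth cells and was also higher in GRKO (log2 fold change 0.79, SE 0.199, adjusted p = 0.00621). It was the other of the 2 genes with a higher level there, and without GRKO non-Paneth replicate 3 its log2 fold change was 0.41 (adjusted p = 0.0506). Gstm3 had 126, 72.4 and 192 CPM in WT and 53.1, 30.3 and 67.5 CPM in GRKO non-Paneth cells, and 12.1, 13.4 and 10.3 CPM in WT Paneth cells (log2 fold change -3.45, SE 0.445, adjusted p = 1.23e-04 between the WT fractions). Gstm1 had 66.3, 39.7 and 62.8 CPM in WT and 37.7, 32.9 and 62.2 CPM in GRKO non-Paneth cells, which overlapped. Gstm4, Gstm6 and Gstm7 were lower in WT Paneth cells, with log2 fold changes of -1.26, -2.47 and -0.97 and in GRKO non-Paneth cells, with -0.80, -1.35 and -0.75, and all of these passed.

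Of the 6 genes of the pi and theta classes, 3 were lower in WT Paneth and 2 in GRKO non-Paneth cells. Gstp1 had 122, 98.6 and 99 CPM in WT non-Paneth, 98.4, 87.1 and 106 CPM in GRKO non-Paneth, 72.2, 75.5 and 54.9 CPM in WT Paneth and 73.9, 59.9 and 55.5 CPM in GRKO Paneth cells. The genotypes overlapped in both fractions, and Paneth cells were lower, with log2 fold changes of -0.66 (adjusted p = 0.00194) in WT and -0.63 (adjusted p = 0.00404, and 0.0528 without GRKO non-Paneth replicate 3) in GRKO mice. Gstt3 stayed between 25.5 and 33.9 CPM in all 12 libraries and passed in none of the 5 comparisons. Gstt1 had 61.7, 47.6 and 46.6 CPM in WT and 24, 21 and 27.1 CPM in GRKO non-Paneth cells (log2 fold change -1.11, SE 0.147, adjusted p = 6.48e-05), and 21.1, 18.2 and 20.4 and 21, 16.7 and 16.5 CPM in the Paneth cells of these genotypes. Gstp2, whose windows are mostly shared, was lower in WT Paneth and GRKO non-Paneth cells, with log2 fold changes of -1.44 and -0.95 (adjusted p = 5.01e-06 and 4.26e-04), Gstp3 passed only between the GRKO fractions (-0.86, adjusted p = 0.00799, and 0.103 without GRKO non-Paneth replicate 3), and Gstt2 passed in none of the 5 comparisons. In sum, the Gstp genes were 1.18-fold and the Gstt genes 1.57-fold higher in WT than in GRKO non-Paneth cells, against 3.28-fold for Cyp4 and 3.1-fold for Sult1.

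Sulfotransferases conjugate phenols, thyroid hormone, catechols and steroids. Sult1b1 had 259, 263 and 294 CPM in WT and 81.7, 71.5 and 93.6 CPM in GRKO non-Paneth cells, and 14.2, 34.5 and 16.2 CPM in WT and 12.2, 15.2 and 18 CPM in GRKO Paneth cells. It was lower in GRKO non-Paneth cells (log2 fold change -1.72, SE 0.26, adjusted p = 3.66e-04). Sult1d1 had 183, 181 and 166 CPM in WT non-Paneth cells, and its 49.1, 49.1 and 81.9 CPM in GRKO non-Paneth cells overlapped the 49.8, 43.1 and 49.9 CPM of GRKO Paneth cells. Between the fractions it differed by -1.72 in WT (adjusted p = 1.05e-05) and -0.34 in GRKO mice (adjusted p = 0.222), and the interaction passed (log2 1.38, adjusted p = 0.00629). Sult1c2 was higher in Paneth cells of WT mice, at 8.55, 7.55 and 8.41 against 3.31, 3.32 and 2.09 CPM (log2 fold change 1.5, SE 0.298, adjusted p = 6.37e-04). Sult1a1, chosen after its values were seen, was low in both GRKO fractions, at 0.121, 0.353 and 0.284 CPM in Paneth and 0.233, 0.545 and 0.259 CPM in non-Paneth cells against 0.76, 2.23 and 1.18 and 1.27, 2.5 and 2.62 CPM in WT mice. The genotypes did not overlap in either fraction, with log2 fold change -2.59, SE 0.49, adjusted p = 9.22e-04 in non-Paneth cells and a log2 fold change of -2.34 that did not pass in Paneth cells (adjusted p = 0.0525). Sult1a1 had only 180 counts over the 12 libraries, so that its GRKO values rest on few counts.

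The 3 efflux pumps were lower in Paneth than in non-Paneth cells of WT mice and lower in GRKO than in WT non-Paneth cells, and all 3 passed the interaction test. Abcc2 (ENSMUSG00000025194, chr19:43770631-43829179, plus strand), which exports glucuronide and glutathione conjugates into the lumen, had 124, 96.5 and 105 CPM in WT non-Paneth and 24.8, 16.4 and 42.7 CPM in GRKO non-Paneth cells. In Paneth cells it had 10.5, 13.2 and 11 CPM in WT and 20.3, 26 and 32.4 CPM in GRKO mice. The genotypes did not overlap in either fraction and were ordered in opposite ways, while GRKO Paneth and GRKO non-Paneth cells overlapped. Abcc2 fell in GRKO non-Paneth cells (log2 fold change -1.96, SE 0.289, adjusted p = 3.84e-04), and in Paneth cells the log2 fold change of 1.19 did not pass (SE 0.317, adjusted p = 0.0564, 0.00288 by DESeq2, up to 0.231 without GRKO Paneth replicate 2). The interaction was 3.15 (SE 0.427, adjusted p = 9.60e-04), the largest of the set, and held in all 21 alternatives. Between the fractions Abcc2 differed by -3.23 in WT (adjusted p = 5.37e-06) and -0.09 in GRKO mice (adjusted p = 0.842). Beside this, the enterocyte markers of Paneth libraries summed to 1392 to 3809 CPM in WT and 1441 to 2260.4 CPM in GRKO mice, and the tuft cell markers to 237, 435 and 602 and 1238, 1587 and 533 CPM. The part of the tuft cell markers was not tested.

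Abcg2, which exports sulfates, urate and many drugs, had 147, 177 and 165 CPM in WT and 61.3, 69.97 and 77.8 CPM in GRKO non-Paneth cells, and 29.6, 46.8 and 31.7 CPM in WT and 29.99, 26.7 and 31.9 CPM in GRKO Paneth cells. It was lower in GRKO non-Paneth cells (log2 fold change -1.23, SE 0.158, adjusted p = 5.55e-05), and the Paneth genotypes overlapped. Abcb1a, the P-glycoprotein pump of the gut, had 80.4, 75.7 and 101 CPM in WT and 49.4, 57.9 and 49.2 CPM in GRKO non-Paneth cells, and 43.7, 63.7 and 69.6 CPM in WT and 47.6, 71 and 72 CPM in GRKO Paneth cells. Its genotype difference in non-Paneth cells was -0.71 on the log2 scale (SE 0.185, adjusted p = 0.00743), and that between the WT fractions -0.54 (SE 0.187, adjusted p = 0.0256). The latter was lost without WT Paneth replicate 1 or WT non-Paneth replicate 1 or 3 (log2 fold change -0.50 to -0.33, adjusted p = 0.0549 to 0.175).

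**Figure D5:**
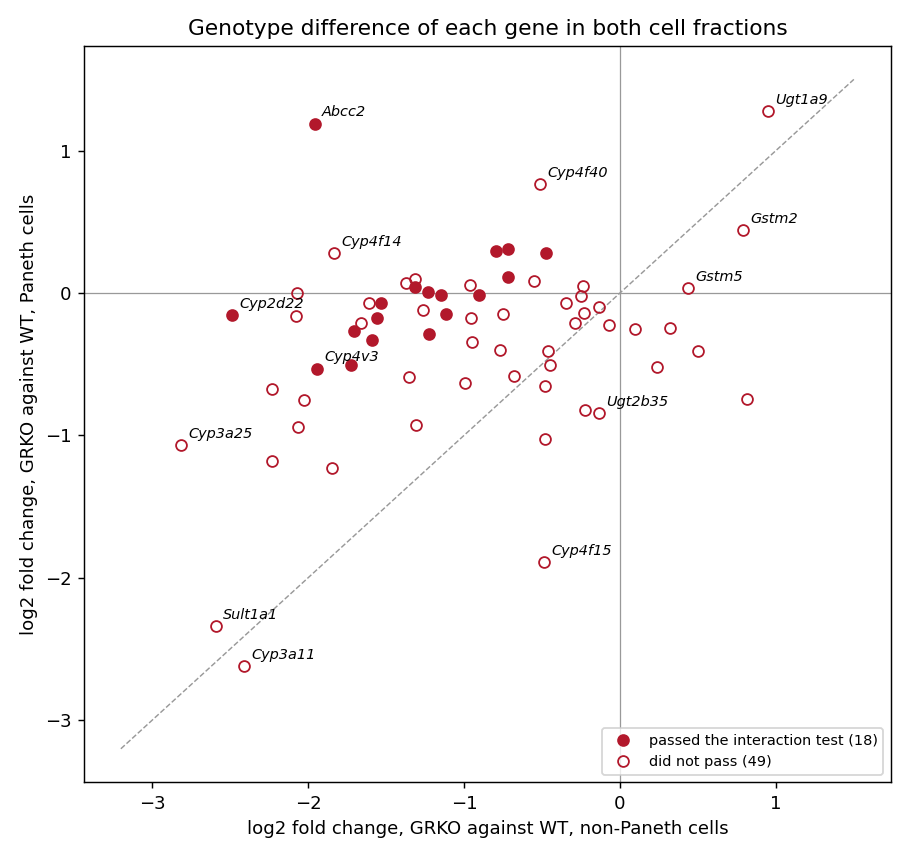
Log2 fold change of GRKO against WT in non-Paneth cells (horizontal) and in Paneth cells (vertical) for the 67 tested genes with counts in all 4 groups, filled where the interaction passed (18) and open where it did not (49). The dashed line marks equal differences. Most points lie left of 0 and near 0 on the vertical axis, Abcc2 alone stands far above 0 in Paneth cells with a fall in non-Paneth cells, and Sult1a1 lies near the dashed line.

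Regulators that act on many of these genes were lower in part. Of 17 tested, 13 were lower in WT Paneth than in WT non-Paneth cells and 7 were lower in GRKO than in WT non-Paneth cells, with a median log2 fold change of -0.20 in the second. Nr1i3 (CAR) had 59.3, 35.5 and 27.1 CPM in WT and 11.1, 6.96 and 14 CPM in GRKO non-Paneth cells (log2 fold change -1.93, SE 0.373, adjusted p = 0.00222) and at most 2.42 CPM in a Paneth library. Nr1i2 (PXR) had 86.9, 81.7 and 78.6 CPM in WT and 50.8, 39.9 and 49.5 CPM in GRKO non-Paneth cells (log2 fold change -0.82, SE 0.156, adjusted p = 9.97e-04), and 42.2, 31.6 and 25.3 CPM in WT and 23.8, 22.7 and 27 CPM in GRKO Paneth cells. Hnf4g fell from 205 ± 10.04 CPM (SD, n = 3) to 96.7 ± 16.2 CPM (SD, n = 3) in non-Paneth cells (log2 fold change -1.09, SE 0.281, adjusted p = 0.0105). Hnf4a, at 736 and 869 CPM on average in WT and GRKO non-Paneth cells, did not pass (log2 fold change 0.24, adjusted p = 0.194), nor did Ahr (0.34, adjusted p = 0.194) or Nfe2l2, the factor of the antioxidant element (-0.25, adjusted p = 0.13). In Paneth cells 0 of 17 regulators passed between the genotypes with edgeR, 5 had an unadjusted p under 0.05, and 1 passed with DESeq2. Of all 13057 genes, 3492 had such a p, and DESeq2 called 1464 of 24077.

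The partners that feed the enzymes were mostly lower in WT Paneth cells. Of 6 electron partners of P450s, 6 were lower in WT Paneth cells and 5 in GRKO non-Paneth cells. Por, the reductase that supplies all microsomal P450s, had 85.2, 79.1 and 95 CPM in WT and 60.9, 48 and 55.4 CPM in GRKO non-Paneth cells (log2 fold change -0.66, SE 0.138, adjusted p = 0.00192). Of 10 genes tested that supply glucuronic acid, glutathione or activated sulfate, 9 were lower in WT Paneth cells and 5 in GRKO non-Paneth cells. Papss2, which makes the sulfate donor PAPS, averaged 464 CPM in WT and 129 CPM in GRKO non-Paneth cells but did not pass (log2 fold change -1.84, SE 0.813, adjusted p = 0.11). Bpnt1, which removes the product left after sulfate transfer, averaged 340.2 and 233 CPM (log2 fold change -0.55, SE 0.136, adjusted p = 0.00557). Ggt1, which splits extracellular glutathione, averaged 458 and 94.8 CPM (log2 fold change -2.27, SE 0.765, adjusted p = 0.0464), while Gss, glutathione synthetase, at 121 and 109 CPM, did not pass (adjusted p = 0.281).

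Other enzymes of drug metabolism outside the rule were mostly lower in WT Paneth cells, and fewer of them passed in GRKO non-Paneth cells. Of 35 other phase 1 enzymes tested, 27 were lower and 1 higher in WT Paneth cells, and 17 were lower and 1 higher in GRKO non-Paneth cells. Maoa, monoamine oxidase A, averaged 667 CPM in WT and 310.1 CPM in GRKO non-Paneth cells (log2 fold change -1.10, SE 0.182, adjusted p = 3.33e-04). The gene called higher in GRKO non-Paneth cells was the mitochondrial aldehyde dehydrogenase Aldh1b1, with 882 CPM in WT and 1171 CPM in GRKO mice (log2 fold change 0.41, adjusted p = 0.014). Xanthine dehydrogenase, Xdh, chosen after its values were seen, averaged 691 CPM in WT and 143 CPM in GRKO non-Paneth cells, and 41.4 and 42.9 CPM in Paneth cells (log2 fold change -2.27, SE 0.358, adjusted p = 8.30e-04 in non-Paneth cells). Of 15 other phase 2 enzymes tested, 11 were lower and 2 higher in WT Paneth cells, and 7 were lower and 1 higher in GRKO non-Paneth cells. In Paneth cells 2 of these were called lower in GRKO mice, Mgst1 (log2 fold change -0.76, SE 0.16, adjusted p = 0.0436) and Acsm3 (log2 fold change -1.06, SE 0.188, adjusted p = 0.0347), a glutathione transferase of membranes and an acyl-CoA synthetase. Both calls were lost without GRKO Paneth replicate 2, with only the groups compared and at a false discovery rate of 1%, where 0 of all genes were called. Of 17 other transporters tested, 13 were lower and 3 higher in WT Paneth cells, and 9 were lower and 3 higher in GRKO non-Paneth cells. The 3 higher ones were the same in both comparisons, which share the WT non-Paneth libraries, and were Abcc1, Abcc4 and Slc29a1. Abcc4, a pump for cyclic nucleotides and conjugates, averaged 16.4 CPM in WT Paneth and 2.16 CPM in WT non-Paneth cells (log2 fold change 2.91, SE 0.252, adjusted p = 1.83e-07), and 5.27 CPM in GRKO non-Paneth cells. Slc15a1, the peptide transporter that also takes up beta-lactam drugs, averaged 337 CPM in WT and 74 CPM in GRKO non-Paneth cells (log2 fold change -2.19, SE 0.741, adjusted p = 0.0472).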

How the data were processed

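RNA of sorted Paneth and non-Paneth cells from small-intestinal crypts of WT and GRKO mice was sequenced in 12 single-end stranded libraries, 3 per group. The authors trimmed reads with Trimmomatic 0.39, aligned them to the mm39 build with STAR 2.7.10a and deposited raw counts per gene, which were used as they stand. Reads that fit several genes or places were not counted, which lowers genes with near-identical copies. Total counts per library were 11126297 to 15910292. The submitters' processing notes also name FastQC and DESeq2.

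The 73 genes and all lists were chosen with earlier results of these data known. Counts were fitted with edgeR 4.0.16 in R 4.3.3 (quasi-likelihood test, robust, TMM scaling, filterByExpr), with a mean for each group over all 12 libraries, and p-values were adjusted by the Benjamini-Hochberg method over 13057 genes with a false discovery rate of 5%. Standard errors are the log2 fold change divided by the square root of F. The code was tested on simulated data. Gene models and sequences came from GRCm39, which is mm39, with GENCODE annotation. DESeq2 1.42.0, other scalings, filters, sample sets and left-out libraries were alternatives, whose effect is given in the closing section. A floor is 3 counts over a group and, like all counting limits, covers counting error only.

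Same-numbered WT Paneth and WT non-Paneth libraries deviated together from their group means across genes (correlations 0.349, 0.229 and 0.238). For GRKO mice the correlations were 0.0129, 0.262 and 0.465. Libraries of different numbers were not compared, so that these values do not settle whether the numbers pair the fractions. The replicate block between the fractions treats same-numbered libraries as pairs in both genotypes.

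Named were the 3 transporters, the 3 genes of highest mean CPM in each family, for each comparison up to 6 called genes with the largest positive and 6 with the largest negative log2 fold change among those with at least 5 CPM in a group, every gene called between the Paneth genotypes, the genes around the count limit, and of the pathway lists Nr1i2, Nr1i3, Ahr, Hnf4a, Hnf4g, Por and up to 4 others of highest mean CPM. Further genes that the report names were chosen after their values were seen, to account for the rest of each family or of a small count. The values of a gene on the transporter list are not reported here.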

Additional observations from a re-analysis of the deposited data

Results flagged for a closer look

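For 18 of the 72 genes tested, the difference between GRKO and WT mice was not the same in Paneth and non-Paneth cells by a test of the interaction in edgeR, against 18.7% of all genes. Each value is the log2 fold change in Paneth cells minus that in non-Paneth cells. Among the pumps, the value was 3.15 for Abcc2, 0.94 for Abcg2 and 0.83 for Abcb1a. Among the P450s, it was 2.33 for Cyp2d22, 1.44 for Cyp4f13, 1.41 for Cyp4v3, 1.36 for Cyp2c65, 1.26 for Cyp2c68 and 1.24 for Cyp4f16. Among the conjugating enzymes, it was 1.46 for Gsta4, 1.38 for Sult1d1, 1.22 for Sult1b1, 1.09 for Gstm4, 1.03 for Ugt1a1, 0.97 for Gstt1, 0.89 for Ugt2b34 and 0.75 for Ugt1a7c, and for the carboxylesterase Ces2a it was 1.14. All 18 genes were lower in GRKO than in WT non-Paneth cells. In Paneth cells the genotype difference of these 18 genes did not pass the test by edgeR, and only for Abcc2 did the Paneth genotypes not overlap. With the replicate number as a block Ces2a did not pass (1.10, adjusted p = 0.0854). Markers of other cell types moved with the same groups. A positive interaction was called for 5 of 20 enterocyte markers (median 1.16) and 1 of 12 Paneth markers (median -0.03), and a negative one for 11 of 12 stem and cycling markers (median -0.81), 4 of 9 tuft cell markers (median -3.5) and 3 of 12 enteroendocrine markers (median -1.31). Their part in these values was not tested.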

How the results depend on the processing

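Over 123 pairs of a named gene and a comparison, 1871 of 2014 alternative values stayed on the same side of the threshold with the same direction, 138 lost the call, 4 gained it and 1 reversed, that of Gstm5 between the GRKO fractions (log2 fold change -0.2884, adjusted p = 0.0627, under scaling by library totals). The number of genes called between the Paneth genotypes, 1 by edgeR, was 0 under library totals, with only the groups compared, at a false discovery rate of 1% and without both libraries of WT replicate 2, 3 with DESeq2 and 12 with no filter on low counts, and it was 0 to 3 with a library left out. Over all genes 420 were called in the main fit, 2 under library totals and 1 without both libraries of WT replicate 2. With only the groups compared and at a rate of 1% it was 0. DESeq2 called 1464 and the fit with no filter 1780, and with a library left out it was 0 to 1619. The 18 interactions became 32 with no filter and 6 at a rate of 1%, and 12 to 24 with a library left out. The other counts ranged from 53 to 57 between the WT fractions, 42 to 49 between the GRKO fractions and 40 to 46 between the non-Paneth genotypes with a library left out. The cause of these shifts was not tested.

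With a replicate block the counts were 59 between the WT fractions, 52 between the GRKO fractions, 5 between the Paneth genotypes, 44 between the non-Paneth genotypes and 21 for the interaction, 19 positive and 2 negative. Between the Paneth genotypes the block gave 977 calls over all 13057 genes. For the fraction comparisons and the interaction the block paired same-numbered fractions within each genotype. For the genotype comparisons it was the replicate number over all groups. That block ties WT to GRKO libraries of the same number, although these came from different mice. Between the WT fractions and between the GRKO fractions the block changed no call of a named gene. The interaction, which also rests on these libraries, lost the call of Ces2a (adjusted p = 0.0854). Between the genotypes same-numbered libraries did not deviate together (correlations -0.098 to 0.166).

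Of the 18 genes whose interaction passed, alternatives were counted for the 16 named by the rule and not for Cyp2c65 and Gstm4. Gstm4 (adjusted p = 0.0229 by edgeR) did not pass at a rate of 1%. Among the 16, the interaction lost its call in 9 of 21 alternatives for Abcb1a, Ces2a and Sult1b1, 10 for Cyp4v3, 7 for Ugt1a1, 3 for Cyp2d22 and Ugt1a7c, 2 for Gsta4, and 1 for Gstt1, Abcg2, Cyp2c68 and Ugt2b34. Among these, Gsta4 lost it without GRKO Paneth replicate 2 (adjusted p = 0.056), Ugt1a7c without GRKO Paneth replicate 3 and under library totals (adjusted p up to 0.136), Gstt1 under library totals (adjusted p = 0.0572) and Cyp2d22 without WT Paneth replicate 3 or GRKO Paneth replicate 2 (adjusted p up to 0.223). Each time a library was left out, between 10 and 16 of 16 interactions of named genes kept their side of the threshold, the fewest without GRKO Paneth replicate 2. Genes under 1 CPM in a fraction, such as Cyp2d22 or Gsta1 in Paneth cells, had too few counts there to show a moderate change.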
